A study of Mus musculus with 6 samples.

Results

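The genes described here are the nuclear-encoded subunits of the mitochondrial respiratory chain and ATP synthase, with a few assembly factors that share their names. They were taken by symbol: every gene whose symbol begins with Nduf, Uqcr, Cox4 to Cox8 or Atp5, together with Sdha, Sdhb, Sdhc, Sdhd and Cycs, leaving out 2 pseudogenes marked as such. This gave 89 of the 19386 genes with a row in the authors' deposited table, of which 85 had an adjusted p, among 12082 genes that did. By role, 36 encode subunits of complex I, 7 assembly factors of complex I, 4 complex II, 8 complex III, 1 cytochrome c, 16 complex IV and 15 ATP synthase, and 2 more, Atp5s and Atp5sl, carry the ATP synthase name without being among its subunits. The symbol rule uses no expression value, although the group was proposed with earlier results of these data known.

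The respiratory chain sits in the inner mitochondrial membrane. Complex I takes electrons from NADH and complex II takes them from succinate, complex III passes them to cytochrome c, and complex IV hands them to oxygen, while complexes I, III and IV pump protons that ATP synthase lets back in to make ATP. Most subunits are encoded in the nucleus and a small set in the mitochondrial genome, so each complex other than complex II is built from both. In macrophages the balance between respiration and glycolysis is known to shift with activation state.

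The study measured RNA by sequencing in bone marrow-derived macrophages, which are grown from marrow cells in medium conditioned by L929 cells. All animals were wild-type C57BL/6 mice. The room air group comprised 3 libraries from mice kept in room air, and the cigarette smoke group 3 libraries from mice exposed to cigarette smoke, with all cells harvested at day 11 of culture, so the exposure was of the animal and not of the dish. Length of exposure, age and sex are not given in the labels, which also do not say whether the 3 cultures of a group came from 3 mice, so the errors cover the spread between libraries, which may be technical.

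Expression was available as group means of normalized counts, not as values per library, and the read depth of each library is unknown. The authors' standard errors came from a fit to 24 libraries, of which 18 do not belong to these groups. All 10 macrophage markers examined were present in the authors' deposited table, with group means between 348 and 24772 normalized counts, and 0 of them passed an adjusted p of 0.05 in either direction. They were not all level: in the authors' deposited table Mrc1 went from 3601 to 2196, or -0.71 ± 0.27 on the log2 scale (DESeq2 adjusted p = 0.0836). Fcgr1 went from 537 to 762 in the authors' deposited table, or 0.51 ± 0.26 (adjusted p = 0.218). Of the markers of other cells, 1 of 6 was listed for neutrophils, 3 of 4 for B cells and 1 of 4 each for dendritic and erythroid cells, all with means under 10 in the authors' deposited table. Cd4 was the listed T cell marker, of 4, at 29.0 and 22.4 in the authors' deposited table. The 4 stromal markers added up to 21.9 in room air and 4.43 after smoke, led by Col1a1, whose adjusted p was 0.340 in the authors' deposited table. The part of these markers in the results was not tested. In such bulk RNA, fewer cells of a type and less RNA per cell cannot be told apart.

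The transcripts of the respiratory chain were mostly at a higher level in macrophages from smoke-exposed mice, by small amounts. Of the 85 tested genes, 18 rose past an adjusted p of 0.05, which is 21.2%, and 0 fell. Of all tested genes 4.15% rose and 3.53% fell, 7.69% in all. At an unadjusted p under 0.05 the DESeq2 comparison gave 43 genes higher and 0 lower, where 12.0% of all tested genes were higher. The value was higher after smoke in 75 genes and lower in 10. The median log2 fold change was 0.29, a fold of 1.22, and that of all tested genes was -0.0029. Added up, the group means of the 89 genes went from 18954 normalized counts in room air to 23378 after smoke, a fold of 1.23. The 18 genes that rose did so by log2 fold changes between 0.29 and 0.94, with standard errors between 0.079 and 0.28. These transcripts are short, and a trend with transcript length and GC content ran through all genes of the comparison. With that trend removed, 2 of the 85 genes passed the threshold, as described further on.

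**Figure D1:**
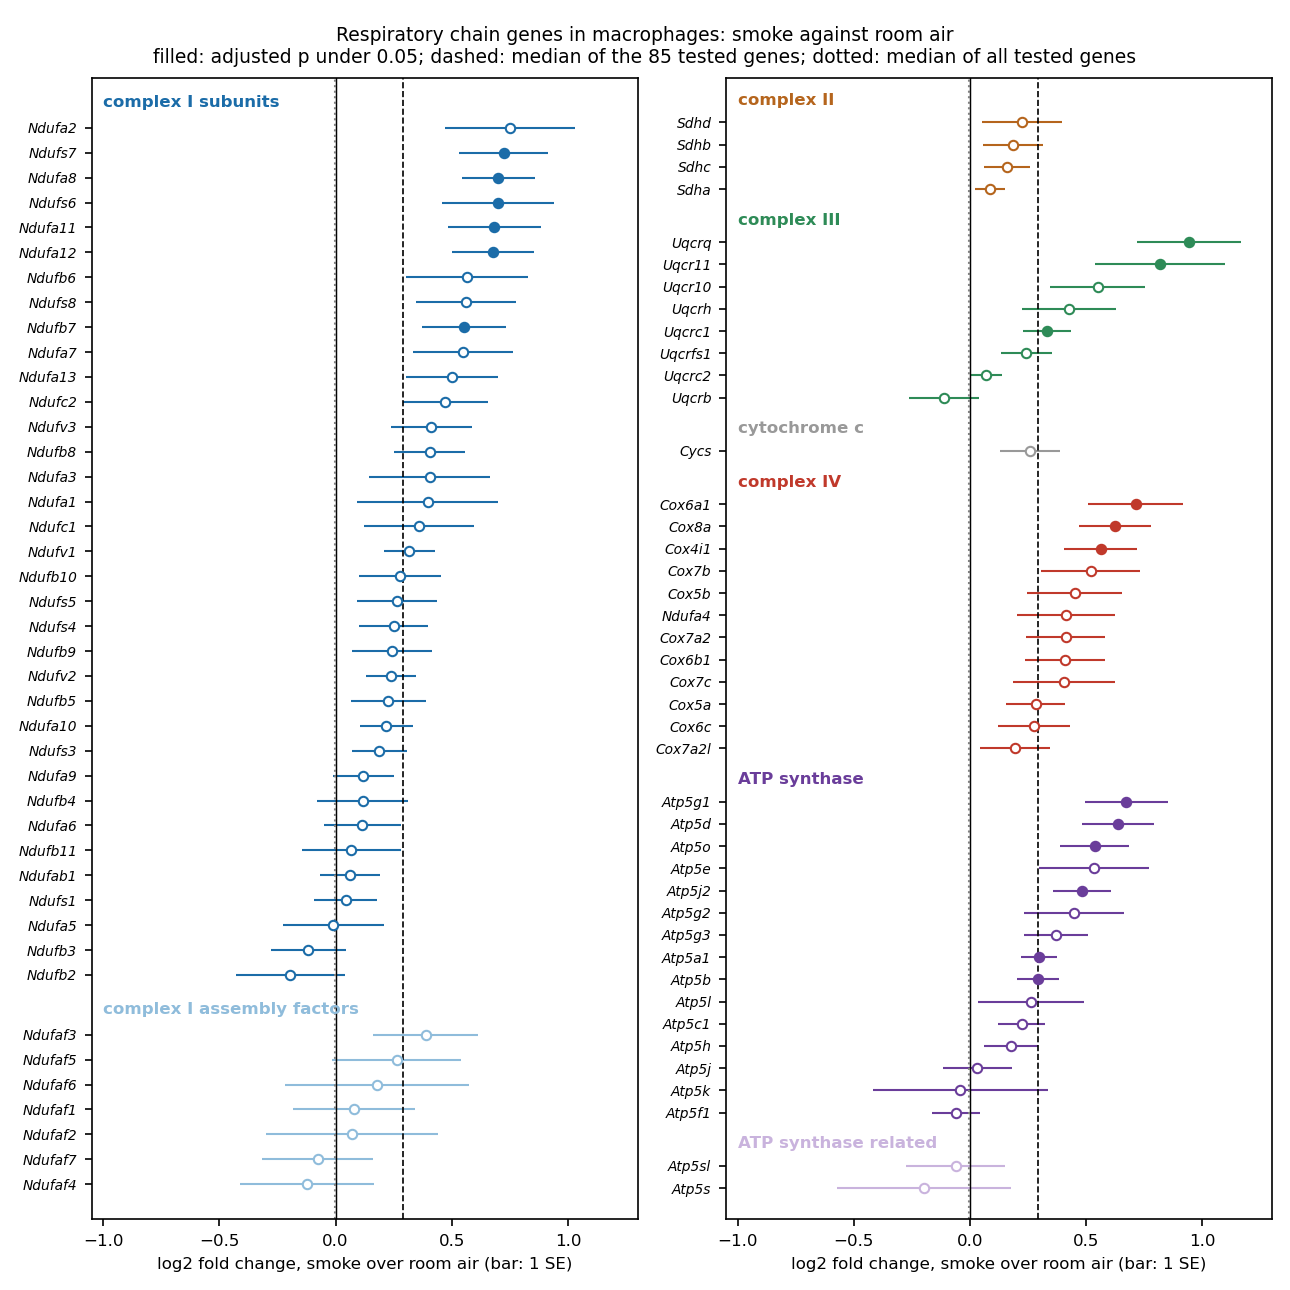
Log2 fold change of 84 of the 85 tested genes, cigarette smoke over room air, grouped by complex on the vertical axis. Points are the values of the authors' deposited table, bars are 1 standard error, and filled points passed an adjusted p of 0.05. All 18 filled points lie to the right of 0, and no complex other than I and III and ATP synthase has a subunit to the left of it.

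Promoters of 4 genes that rose are shown because they carry, between them, a match to each of 3 motifs known from nuclear genes of the respiratory chain. The motifs searched on both strands were GCGCA followed by any base and GCGC for NRF1 (nuclear respiratory factor 1), CCGGAAGT for ETS factors, to which GABP belongs, and AAGATGGCG for YY1. None of these contains another. The windows come from RefSeq on GRCm38.p6 and run from 250 bases before to 50 bases after the transcription start, 5′ to 3′ along the gene, with motif matches in capitals. The windows were chr13:73328433-73328732 on the minus strand for Ndufs6, chr5:115348909-115349208 on the minus strand for Cox6a1, chr10:80406772-80407071 on the minus strand for Uqcr11 and chr10:80249199-80249498 on the plus strand for Ndufs7.
Ndufs6: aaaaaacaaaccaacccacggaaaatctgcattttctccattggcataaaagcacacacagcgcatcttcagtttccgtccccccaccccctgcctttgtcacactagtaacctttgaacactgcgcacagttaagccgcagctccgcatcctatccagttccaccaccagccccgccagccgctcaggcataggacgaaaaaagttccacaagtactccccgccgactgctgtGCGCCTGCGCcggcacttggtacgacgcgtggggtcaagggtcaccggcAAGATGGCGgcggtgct
Cox6a1: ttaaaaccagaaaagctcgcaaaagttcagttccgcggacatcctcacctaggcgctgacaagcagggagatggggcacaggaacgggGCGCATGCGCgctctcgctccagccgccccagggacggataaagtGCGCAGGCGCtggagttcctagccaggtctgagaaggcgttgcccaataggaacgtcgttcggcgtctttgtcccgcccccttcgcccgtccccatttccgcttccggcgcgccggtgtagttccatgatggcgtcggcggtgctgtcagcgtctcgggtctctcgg
Uqcr11: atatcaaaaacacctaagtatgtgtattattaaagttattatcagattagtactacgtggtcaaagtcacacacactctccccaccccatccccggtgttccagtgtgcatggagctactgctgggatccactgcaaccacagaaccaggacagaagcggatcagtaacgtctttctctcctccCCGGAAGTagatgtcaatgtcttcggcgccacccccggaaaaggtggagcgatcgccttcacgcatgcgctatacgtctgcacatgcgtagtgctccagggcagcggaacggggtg
Ndufs7: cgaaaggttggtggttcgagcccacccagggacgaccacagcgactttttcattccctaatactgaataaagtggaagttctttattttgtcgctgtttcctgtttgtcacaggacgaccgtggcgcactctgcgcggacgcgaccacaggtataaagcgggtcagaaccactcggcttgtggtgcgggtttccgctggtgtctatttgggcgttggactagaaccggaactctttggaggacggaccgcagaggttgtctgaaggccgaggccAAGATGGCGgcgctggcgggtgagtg

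In Ndufs6 the NRF1 match began 16 bases before the start and was read on the opposite strand, and the YY1 match began at base 34 after it. The 2 NRF1 matches of Cox6a1 began 162 and 117 bases before the start. The ETS match of Uqcr11 began 66 bases before the start, and the YY1 match of Ndufs7 at base 25 after it. The window of Ndufs7 lies inside the annotated gene, which begins at chr10:80249121. It covers an annotated intron of the 5 prime UTR, at chr10:80249205-80249311, so its bases before the start are not upstream of the whole gene. Of the 75 genes of the group with a window in the table, 19 held an NRF1 match, which is 25.3%, against 5.19% of 27025 genes in the table and 12.4% of the 8791 genes there that had an adjusted p. The YY1 motif was in 8 of the 75, or 10.7%, against 1.64% of all genes and 3.98% of those tested. The ETS motif was in 5, or 6.67%, against 4.31% and 10.0%. A match describes letters only. NRF1 matches stood in 6 of the 15 genes with a window that rose and in 13 of the 58 with a window that were tested and did not pass. The median log2 fold change was 0.26 in the 19 genes with an NRF1 match and 0.37 in the 54 without. For ETS the counts were 2 of 15 and 3 of 58, with medians of 0.43 with a match and 0.30 without. For YY1 they were 3 of 15 and 5 of 58, with medians of 0.30 and 0.32.

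Complex I, the entry point for electrons from NADH, had the most genes. Of its 36 subunits 6 rose and 0 fell, beside 17 with an unadjusted p under 0.05, all higher. The value was higher in 33 and lower in 3, with a median log2 fold change of 0.32 and a sum of group means that went from 4586 to 5795 normalized counts. The 7 nuclear core subunits, which carry the iron-sulfur clusters, the flavin and the quinone site, all had higher values, with a median of 0.31 and 1 gene past the threshold. The 29 accessory subunits had a median of 0.36, with 5 past the threshold, 26 higher and 3 lower.

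Ndufs7, a core subunit near the quinone site, went from 88.7 to 148 normalized counts by the authors' deposited table, which is 0.72 ± 0.19 on the log2 scale (± SE; DESeq2 adjusted p = 0.00642). The accessory subunit Ndufa8 rose from 155 to 253, by 0.70 ± 0.16 (adjusted p = 0.00106), in the authors' deposited table. Ndufa12 rose from 97.5 to 159 in the authors' deposited table, by 0.68 ± 0.18 (adjusted p = 0.00586). These 3 genes had the lowest adjusted p-values of complex I.

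The other 3 of complex I that rose were Ndufa11, Ndufb7 and Ndufs6, all accessory subunits. The authors' deposited table has Ndufa11 at 80.5 and 132 normalized counts, or 0.68 ± 0.20 on the log2 scale (adjusted p = 0.0167). It has Ndufb7 at 113 and 169, or 0.55 ± 0.18 (adjusted p = 0.0343), and, in the authors' deposited table too, Ndufs6 at 59.1 and 99.7, or 0.70 ± 0.24 (adjusted p = 0.0486). Ndufs6 lay just inside the threshold. Just outside it in the authors' deposited table lay the NADH-binding core subunit Ndufv1, with 0.32 ± 0.11 (adjusted p = 0.0529). Ndufs8, a core subunit with iron-sulfur clusters, had 0.56 ± 0.22 (adjusted p = 0.0821) in the authors' deposited table, Ndufv2 0.24 ± 0.11 (adjusted p = 0.156) and Ndufs3 0.19 ± 0.12 (adjusted p = 0.357). Ndufs1, the largest iron-sulfur subunit, was at 358 and 368 in the authors' deposited table, or 0.044 ± 0.13 on the log2 scale (adjusted p = 0.898).

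The highest and the lowest fold changes of complex I belonged to accessory subunits that did not pass the threshold. In the authors' deposited table Ndufa2 had a log2 fold change of 0.75 ± 0.28 (adjusted p = 0.0720) and Ndufb2 one of -0.19 ± 0.24 (adjusted p = 0.687). The Ndufb subunits, which belong to the membrane arm, had 1 of 10 past the threshold and a median of 0.23, and the Ndufa subunits 3 of 13 and a median of 0.40. The difference between the families was not tested. Among the 7 assembly factors of complex I, 0 passed the threshold and 0 had an unadjusted p under 0.05 by DESeq2, with a median of 0.079. Ndufaf3 alone averaged 50 or more over the 24 libraries, and it was at 42.0 and 57.0 normalized counts by the authors' deposited table, or 0.39 ± 0.23 on the log2 scale (adjusted p = 0.302).

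Complex II, succinate dehydrogenase, is shared with the citric acid cycle and has no mitochondrially encoded subunit. None of its 4 genes passed the threshold by DESeq2, and 0 had an unadjusted p under 0.05, although all 4 values were higher. Sdha, the flavoprotein, was at 921 and 975 normalized counts by the authors' deposited table, or 0.087 ± 0.065 on the log2 scale (adjusted p = 0.457). The iron-sulfur subunit Sdhb had 0.18 ± 0.13 (adjusted p = 0.410) in the authors' deposited table. The membrane anchors Sdhc and Sdhd had 0.16 ± 0.10 (adjusted p = 0.354) and 0.22 ± 0.17 (adjusted p = 0.465) in the authors' deposited table. The standard error of Sdha was the smallest among the 85 genes.

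Complex III, which passes electrons from quinol to cytochrome c, had 3 of its 8 genes past the threshold, with 7 values higher and 1 lower and a median of 0.38. The gene with the highest log2 fold change of all 85 belonged to it. Uqcrq, a small accessory subunit at chr11:53427922-53430831 on the minus strand (GRCm38), went from 81.5 to 160 normalized counts by the authors' deposited table, or 0.94 ± 0.22 on the log2 scale (adjusted p = 0.00197). Uqcr11, another small accessory subunit, rose from 56.7 to 102 in the authors' deposited table, by 0.82 ± 0.28 (adjusted p = 0.0467). Uqcrc1, a core protein of the matrix side, rose from 471 to 592 in the authors' deposited table, by 0.33 ± 0.10 (adjusted p = 0.0254).

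The other 5 genes of complex III taken by symbol did not pass the threshold. Uqcrc2, the partner of Uqcrc1 in the core, had nearly the same room air mean of 471 but a smoke mean of 491 in the authors' deposited table, or 0.068 ± 0.070 on the log2 scale (adjusted p = 0.616). The Rieske iron-sulfur protein Uqcrfs1 had 0.24 ± 0.11 (adjusted p = 0.158) in the authors' deposited table. The lower value belonged to Uqcrb, at 244 and 222 in the authors' deposited table, or -0.11 ± 0.15 on the log2 scale (adjusted p = 0.719). Cyc1, cytochrome c1 of the same complex, does not match the symbol rule but is listed in the authors' deposited table at 136 and 218, a log2 fold change of 0.67 ± 0.18 (adjusted p = 0.00795). With the trend in GC content and length removed, which is described further on, Cyc1 had a residual of 0.43 (adjusted p = 0.271) and lost the call. Cytochrome c itself, Cycs, the soluble carrier to complex IV, went from 286 to 341 in the authors' deposited table, or 0.26 ± 0.13 on the log2 scale (adjusted p = 0.215).

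Complex IV, cytochrome c oxidase, had higher values for all of its 12 tested genes, 3 of them past the threshold and 9 with an unadjusted p under 0.05. The median of 0.41 was the highest of the complexes, and the group means added up to 2999 normalized counts in room air and 4043 after smoke over its 16 listed genes. Cox4i1, the broadly expressed form of subunit 4, rose from 580 to 858 in the authors' deposited table, by 0.56 ± 0.16 (adjusted p = 0.0106). Cox6a1, the liver-type form of subunit 6a, rose from 223 to 370 in the authors' deposited table, by 0.71 ± 0.21 (adjusted p = 0.0148). Cox8a rose from 167 to 258 in the authors' deposited table, by 0.63 ± 0.16 (adjusted p = 0.00334).

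Subunits of complex IV with several isoforms were represented by the broadly expressed form. Cox4i2, Cox6a2, Cox6b2 and Cox7a1, known from lung, heart and muscle, testis, and muscle, had no adjusted p. In room air and after smoke the authors' deposited table has Cox4i2 at 0 and 1.80 normalized counts, and Cox6a2 at 1.96 and 3.84. In the same groups the authors' deposited table has Cox6b2 at 6.56 and 5.88, and Cox7a1 at 1.41 and 5.45. The broadly expressed partners Cox6b1 and Cox7a2 had log2 fold changes of 0.41 ± 0.17 (adjusted p = 0.124) and 0.41 ± 0.17 (adjusted p = 0.115) in the authors' deposited table. Cox7a2l, a subunit 7a relative, had the lowest value among the 12 tested genes of complex IV in the authors' deposited table, 0.19 ± 0.15 (adjusted p = 0.472). Cox5a, a subunit on the matrix side, had 0.28 ± 0.13 (adjusted p = 0.159) in the authors' deposited table, and Cox7b 0.52 ± 0.21 (adjusted p = 0.110). Ndufa4, named for complex I but now placed in complex IV, had 0.41 ± 0.21 (adjusted p = 0.219) in the authors' deposited table. Cox7b2, Cox8b, Cox8c and Ndufa4l2, whose symbols fit the rule, are not among the 89 genes and were not analysed here.

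ATP synthase, which makes ATP from the returning protons, had 6 of its 15 genes past the threshold, or 40.0%, with 13 values higher and 2 lower and a median of 0.30. Of the 5 genes for the catalytic head and its central stalk 3 rose, and of the 10 for the membrane part and the peripheral stalk 3 rose. The head subunits Atp5a1 (alpha) and Atp5b (beta) had the highest group means of all 85 genes. In the authors' deposited table Atp5a1 went from 1714 to 2102 normalized counts, a log2 fold change of 0.30 ± 0.079 (adjusted p = 0.00659). Atp5b went from 1882 to 2304 in the authors' deposited table, or 0.29 ± 0.091 on the log2 scale (adjusted p = 0.0265). Atp5d, the delta subunit of the central stalk, rose from 215 to 334 in the authors' deposited table, by 0.64 ± 0.15 (adjusted p = 0.00236).

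Outside the head, Atp5o, which caps the head and ties it to the peripheral stalk, rose from 275 to 404 in the authors' deposited table, by 0.54 ± 0.15 (adjusted p = 0.0106). Atp5j2, subunit f of the membrane part, rose from 171 to 241 in the authors' deposited table, by 0.48 ± 0.13 (adjusted p = 0.00578). The ring that turns in the membrane is made of subunit c, which 3 genes encode with the same mature protein. Atp5g1 rose from 122 to 198 in the authors' deposited table, by 0.67 ± 0.18 (adjusted p = 0.00660). Atp5g2 and Atp5g3 had log2 fold changes of 0.45 ± 0.22 (adjusted p = 0.188) and 0.37 ± 0.14 (adjusted p = 0.0748) in the authors' deposited table. Whether the 3 genes differed from each other in their change was not tested. Per kilobase of transcript, the room air level was 340 for Atp5g2, 291 for Atp5g3 and 45.7 for Atp5g1, so the gene that passed the threshold had the lowest level of the 3. These levels depend on the transcript taken: with the shortest coding transcript they were 451, 293 and 205, in the same order. The lowest value of ATP synthase was that of the peripheral stalk subunit Atp5f1, at 705 and 672 normalized counts by the authors' deposited table, or -0.059 ± 0.10 on the log2 scale (adjusted p = 0.796). Atp5sl had -0.062 ± 0.21 (adjusted p = 0.908) in the authors' deposited table.

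**Figure D2:**
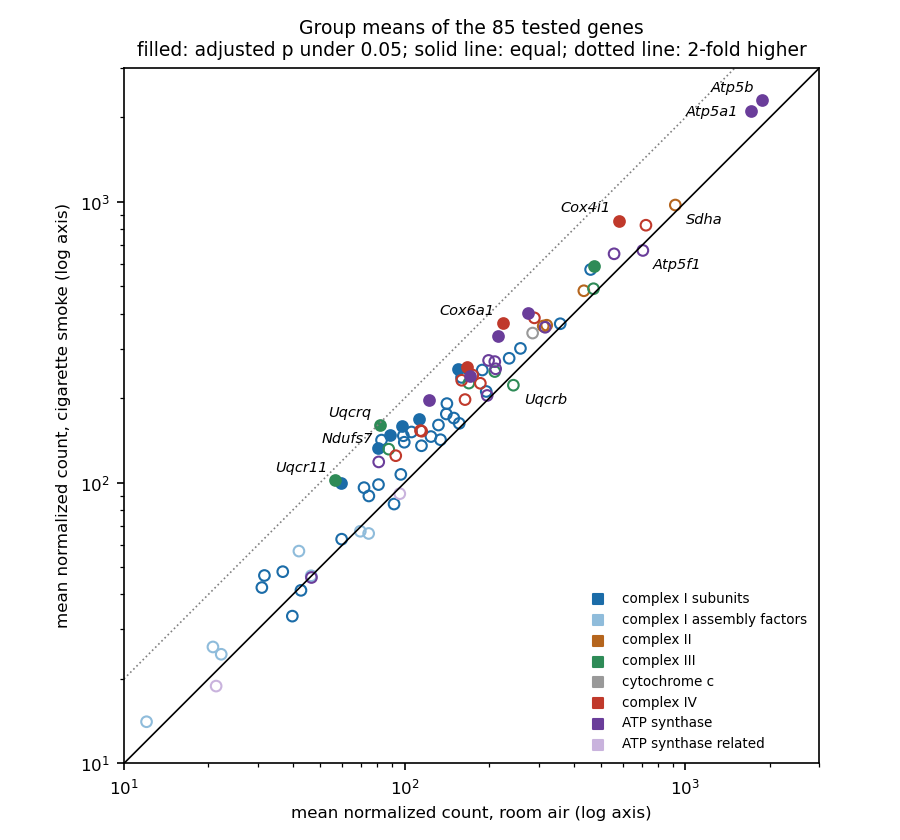
Mean normalized count of the 85 tested genes after cigarette smoke (vertical, log axis) against room air (horizontal, log axis), by complex, from the authors' deposited table; filled points passed an adjusted p of 0.05. Points lie between the line of equality and the dotted line of a 2-fold higher level except for the 10 genes with a lower value after smoke, and the genes that rose run from 56.7 to 1882 normalized counts in room air.

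Genes that act with these subunits were taken from lists by role. Of the 13 messenger RNAs that the mitochondrial genome encodes 12 were tested, and 0 passed the threshold by DESeq2, with 4 values higher and 8 lower and a median of -0.21. Over the 9 with a mean of at least 50 the median was -0.37, and with the trend in GC content and length removed that of the 12 was -0.072. At an unadjusted p under 0.05 there were 4 lower and 1 higher. mt-Nd5, a proton-pumping subunit of complex I, went from 9566 to 6497 normalized counts by the authors' deposited table, or -0.56 ± 0.21 on the log2 scale (adjusted p = 0.0683). With the trend removed its residual was -0.32 (adjusted p = 0.598). The difference between nuclear and mitochondrial messenger RNAs was not tested. The 3 genes mt-Co2, mt-Co3 and mt-Atp6 had means under 40 in the authors' deposited table, beside 28468 for mt-Co1 in room air, and are not read further.

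Among 42 tested assembly and cofactor delivery factors of complexes I to IV and ATP synthase, 2 rose and 0 fell, or 4.76% higher, close to the 4.15% of all tested genes, with a median of 0.13. These were Uqcc2, which helps to assemble cytochrome b, with 0.70 ± 0.23 (adjusted p = 0.0370) in the authors' deposited table, and Coa3, an assembly factor of complex IV, with 0.67 ± 0.22 (adjusted p = 0.0363). Both calls ended with the trend removed, where Uqcc2 had a residual of 0.28 (adjusted p = 0.740) and Coa3 one of 0.30 (adjusted p = 0.671). Of 11 tested transcription factors and coactivators of mitochondrial genes, 1 rose and 0 fell, or 9.09% higher beside the 4.15% of all tested genes. Their values were higher in 5 and lower in 6, with a median of -0.097. Esrra, estrogen-related receptor alpha, went from 110 to 158 normalized counts by the authors' deposited table, or 0.54 ± 0.15 on the log2 scale (adjusted p = 0.0109). The call for Esrra also ended with the trend removed, at a residual of 0.22 (adjusted p = 0.629). The factors whose motifs were searched did not pass: the authors' deposited table has Nrf1 at 0.17 ± 0.16 (adjusted p = 0.570), Yy1 at -0.18 ± 0.14 (adjusted p = 0.492) and Gabpa at -0.30 ± 0.19 (adjusted p = 0.335). Gabpb2 had the lowest value of the 11, at -0.51 ± 0.19 (adjusted p = 0.0696) in the authors' deposited table. With the trend removed its residual was -0.19 (adjusted p = 0.814). The coactivator Ppargc1a was at 0.522 and 0 normalized counts by the authors' deposited table and had no adjusted p.

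Across all genes of the comparison, short and GC-rich transcripts had higher fold changes, and respiratory chain transcripts are short. Their median length was 838 nucleotides, taken for each gene as the median over its coding transcripts, against 2574 for all tested genes. Among the other genes under 600 nucleotides the median log2 fold change was 0.42 and 7.48% rose, and among the 25 genes of the group in that range the median was 0.45 and 6 rose. Between 600 and 800 nucleotides the group was at 0.28 (17 genes, 3 rising) and the other genes at 0.29 (11.2% rising). Between 800 and 1200 the values were 0.26 (15 genes, 5 rising) and 0.18 (8.17% rising). Between 1200 and 2000 nucleotides the 2394 other genes had a median of 0.12 with 7.02% rising, and the 18 of the group had 0.24 with 2 rising. The 8 genes between 2000 and 3000 nucleotides had a median of 0.074 with 2 rising, where other genes had -0.011 with 3.47% rising. The 2 longer ones had 0.068 with 0 rising, where other genes had -0.14 with 1.01% rising. Over the 85 genes the log2 fold change had a Spearman rho of -0.43 with length and 0.53 with GC content. The rho with length was -0.40 in the 36 complex I subunits, -0.070 in the 12 genes of complex IV and 0.21 in the 15 of ATP synthase. That with GC content was 0.50, 0.54 and 0.51. Over 11986 other genes the rho was -0.40 with length and 0.48 with GC content. These are correlations across genes of the same libraries, which are not independent replicates.

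When a smooth trend in GC content and length over 12071 genes was taken out, 2 of the 85 genes passed an adjusted p of 0.05, both higher, where 0.928% of all genes passed as higher and 0.712% as lower. They were Cycs, with a residual log2 fold change of 0.50 (adjusted p = 0.0149), and Atp5g1, with 0.64 (adjusted p = 0.0275). Of the 18 genes that had risen, 17 lost the call and all 18 kept a positive residual, between 0.063 and 0.73. Uqcrq had the highest residual, 0.73, with an adjusted p of 0.0582. The median residual of the 85 genes was 0.14, with 65 positive and 20 negative, against -0.0063 for all genes. By complex the median residual was 0.13 for complex I subunits, 0.091 for complex II, 0.18 for complex III, 0.20 for complex IV, where all 12 were positive, and 0.18 for ATP synthase. In 12 of the 85 genes the sign changed, among them Sdhb, to -0.071, and Ndufs3, to -0.051, and none of the 18 was among these 12. Which genes pass also depends on the transcript taken for the length. With the longest transcript of each gene Uqcrq and Atp5g1 passed, with adjusted p-values of 0.0478 and 0.00297. With the shortest coding transcript Cycs and Atp5a1 did, with 0.00959 and 0.0175.

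**Figure D3:**
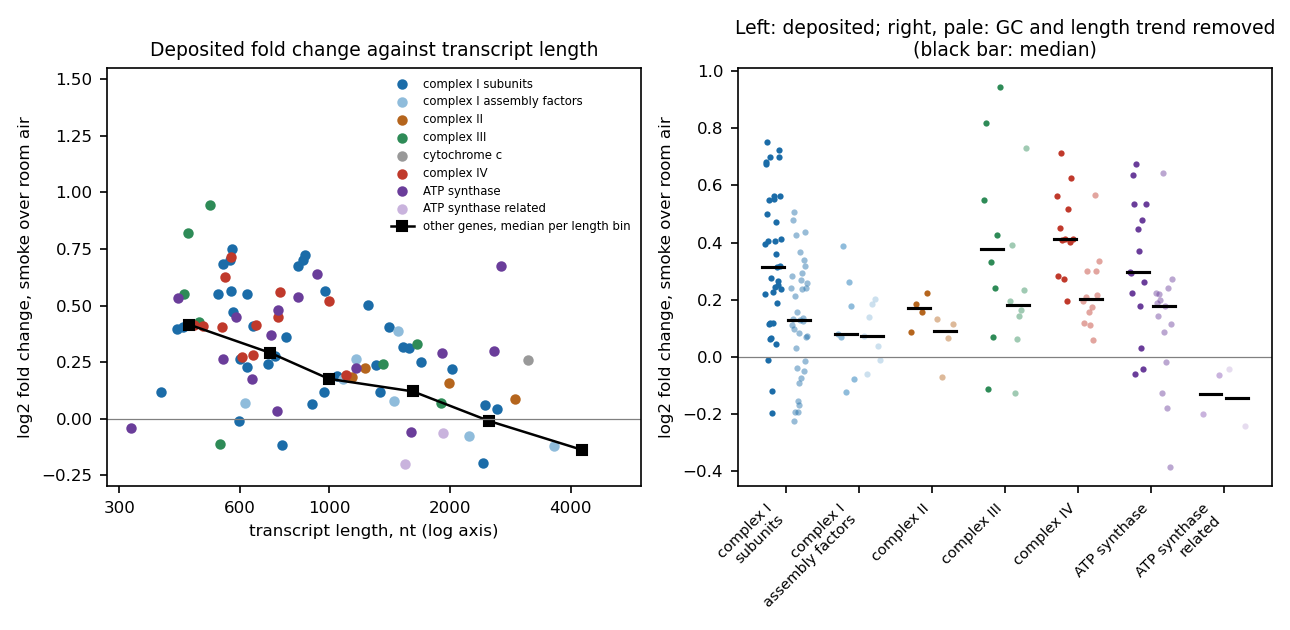
Left, log2 fold change of the 85 genes against transcript length in nucleotides (log axis), with the median of all other tested genes per length bin as black squares. Right, log2 fold changes per complex as deposited and, in pale points, after removal of the GC and length trend. The medians of complexes I, III and IV move from 0.32, 0.38 and 0.41 to 0.13, 0.18 and 0.20.

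Some counts may be shared with other genes. Near-identical copies elsewhere in the annotation, at 90% identity or more over at least 50% of the coding transcript, were found for 21 of the 89 genes, nearly all of them pseudogenes, up to 13 for Atp5l. They concern 6 of the 18 genes that rose: Ndufa12, Ndufb7, Ndufs6, Cox6a1, Atp5g1 and Atp5o. Exons of a gene on the opposite strand overlap Ndufa11, Ndufs6, Cox4i1, Atp5a1, Atp5d and Atp5o, and Atp5o also shares exons with another gene model on its own strand. Libraries were strand-specific per the labels, but the strand setting of the counting is not given in the sources used here. The fold changes of these genes are uncertain to that extent.

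Splicing was deposited as percent inclusion per library, so each of the 6 libraries can be read. The authors' junction-based events included 50 in 25 genes of the group, among them 16 retained introns, 11 cassette exons and 11 alternative donors. In limma over all 10376 events, 0 of the 50 passed an adjusted p of 0.05, as did 0% of all events. At an unadjusted p under 0.05 there were 6, all lower after smoke and 5 of them retained introns, where 10.8% of all events had such a p. This count of 6 was between 2 and 12 with each library left out in turn, lowest without room air replicate 2 or smoke replicate 2 and highest without smoke replicate 3, and 2 with the replicate number as a block.

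In Ndufs8, which carries iron-sulfur clusters of complex I, the intron at chr19:3911257-3911565 was retained at 7.14%, 5.88% and 4.17% in the room air libraries and 0%, 0% and 3.12% in the smoke libraries (limma adjusted p = 0.356). Each smoke level was under the lowest room air level. An alternative donor of the first intron of Ndufs8, at chr19:3911747-3912709, was used at 5.56%, 2.38% and 2.94% in room air and 0%, 0% and 1.49% after smoke (limma adjusted p = 0.362). It is 1 of 8 donor events listed over the same stretch, of which 3 had a lower and 5 a higher mean after smoke, and it was named for its low p. These 8 score competing donors of the same intron under overlapping event types. Their directions are therefore linked, and they are not separate observations. The Ndufs3 intron at chr2:90902513-90902846 was at 8.70%, 8.47% and 9.26% against 0%, 0% and 7.25%. The Atp5g3 intron at chr2:73908708-73909183 was at 6.76%, 5.56% and 6.45% against 0%, 1.82% and 3.66%. In these 2 introns also the groups did not overlap, as in 38.7% of all retained introns, and all of these events were named for their low p.

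Uqcrq had the highest level among the introns of the group. This intron of 85 nucleotides in the 5 prime UTR, at chr11:53430703-53430787, lies within an exon in 2 annotated transcripts and is spliced out in another. Its inclusion was 88.9%, 94.6% and 90.5% in room air and 76.9%, 88.6% and 85.3% after smoke (limma adjusted p = 0.524). The highest smoke level lay just under the lowest room air level. The first intron of Ndufs8, of 963 nucleotides, was retained at 17.6%, 14.3% and 6.67% against 15.4%, 12.0% and 9.52%, with wide overlap. By the mean over both groups the last intron of Ndufa3, at chr7:3619508-3620000, came next, at 7.14%, 10.0% and 7.14% against 0%, 7.14% and 9.26%. In room air alone the Ndufs3 intron named above was higher, with a mean of 8.81% against 8.09%.

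Of the cassette exons of the group, 7 had a value in all libraries, and in 2 of these every smoke library lay below every room air library, where this held for 6.12% of all 735 such exons. These 2 were chosen after their values were seen. The Ndufv3 exon, between chr17:31521693 and 31531109, was included at 34.0%, 30.3% and 29.6% in room air and 16.7%, 19.3% and 28.4% after smoke (limma adjusted p = 0.541). The Atp5j exon, between chr16:84831503 and 84834808, was included at 11.4%, 10.9% and 15.2% against 7.14%, 5.26% and 9.71% (limma adjusted p = 0.535).

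Averaged over the 14 introns of the group with a value in all libraries, retention was 11.7%, 13.6% and 11.7% in the room air libraries, a mean of 12.3% ± 1.13 (SD, n = 3). After smoke it was 7.90%, 8.03% and 9.82%, a mean of 8.58% ± 1.07 (SD, n = 3), so the groups did not overlap, and all 14 introns had a lower mean. The intron of Uqcrq carries much of the level: without it the means were 6.26% ± 0.996 and 2.81% ± 1.11 (SD, n = 3). In 6 of the 14, every smoke library lay below every room air library, where this held for 38.7% of all 1992 retained introns. Over those 1992 introns the library means were 15.6%, 16.7% and 14.7% against 10.3%, 11.3% and 12.8%, and 92.5% of introns had a lower mean after smoke. The lower retention was thus shared with introns in general. The reads behind each level are unknown. Smoke replicate 1 lacked a value for 4169 of all 10376 events and for 8 of the 50 of the group, against at most 398 and 0 in any other library, and levels of exactly 0 were found for 9, 9 and 0 of the 14 introns in the smoke libraries and 3, 0 and 1 in the room air libraries. The part of read depth in the lower levels was not tested.

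**Figure D4:**
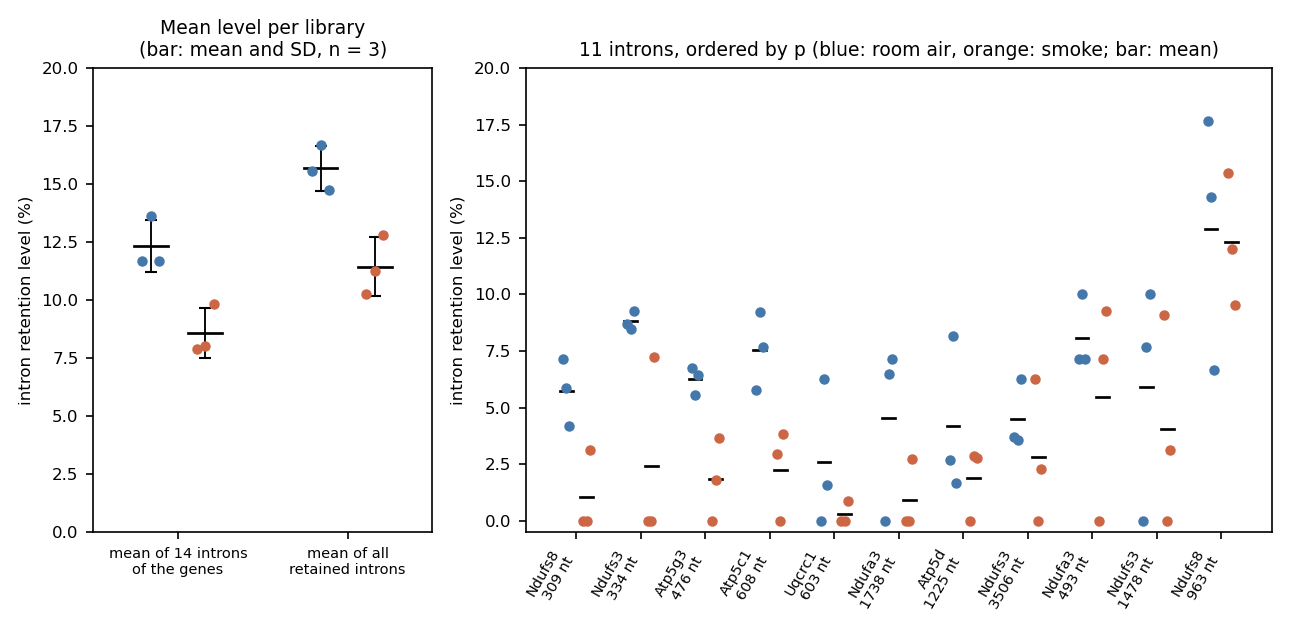
Left, mean retention level (%) per library over 14 introns of respiratory chain genes and over all 1992 retained introns, with group mean and SD (n = 3). Right, 11 of the 14 introns in each library; that of Uqcrq, with levels above 75%, is among those left out. Room air libraries (blue) average 12.3% and smoke libraries (orange) 8.58% over the 14 introns, and the means over all introns are 15.7% and 11.4%.

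A second list, of retained introns from rMATS, held 20 introns in 15 genes of the group. A false discovery rate under 0.05 was given to 4 of the 20 in the authors' deposited table, or 20%, where 14.5% of its 3887 introns did. Which group its sample sets stand for is not given, so no direction is stated. By the authors' deposited table the 4 differences were small, from 1.3 to 3.7 percentage points. They were the Atp5d intron at chr10:80142607-80143831 (false discovery rate 0.000369), the Atp5g3 intron named above (0.0138), the Atp5g2 intron at chr15:102663129-102665053 (0.0188) and the Uqcrc1 intron at chr9:108947480-108947597 (0.0393), all between coding exons, with rates from the authors' deposited table. The introns of Atp5d and Atp5g3 were also among the junction-based events, where that of Atp5d was at 2.70%, 8.16% and 1.69% in room air and 0%, 2.86% and 2.78% after smoke, with overlap of the groups. In total 3 introns of the group stood in both lists.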

How the data were processed

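RNA of 6 macrophage libraries was analysed, 3 from each exposure group, with groups taken from the sample titles. Per the submitters' processing notes, STAR, SAMtools 1.9, bedtools 2.27.1 and DESeq2 were used with build mm10; their roles, the counting program and the filters are not given in the sources used here. The authors' gene table holds group means of normalized counts (a signal column per group, per the file headers) from a fit to 24 libraries. It also holds log2 fold changes with standard errors deposited by the authors, a test score deposited by the authors, and p-values deposited by the authors. No counts per library were used, so the authors' comparison was read as a description at an adjusted p under 0.05. For JuncBASE events the authors deposited percent inclusion per library, with p-values. The retained introns and their false discovery rates were deposited by the authors as rMATS output, in which 6 columns of per-sample values were not used. Differences in inclusion in the authors' tables are other quantities, in percentage points or as a fraction.

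The genes and lists were chosen with earlier results of these data known. Genes were named by rule: those past the threshold, the highest and lowest of each complex with a mean of at least 50, a fixed set of core subunits, isoform pairs, and genes of the other lists past the threshold. Ndufs3, Ndufs8, Ndufv2 and Gabpb2, and the markers Mrc1 and Fcgr1, were added after their values were seen. Marker and pathway lists are described in the text, and the named events were the 5 with the lowest p, the 3 introns with the highest level and the rMATS introns past a false discovery rate of 0.05, besides 2 cassette exons chosen after their values were seen. Results that name 1 gene of the group are not reported here, though the counts and medians include it. Inclusion was put on a log2 odds scale, adding 1 percentage point to the included and the excluded share, and fitted with limma 3.58.1 in R 4.3.3 over all events, with Benjamini-Hochberg adjustment. Positions, lengths and GC content came from GENCODE M21 (GRCm38), with length as the median over coding transcripts of its basic set, found for all 89 genes and 99.9% of tested genes. The longest transcript was not used for the main length because it is not coding in 30 of the 89 genes. The trend came from a weighted linear fit of natural splines in length and GC content, each with 4 degrees of freedom (statsmodels 0.14.6, patsy 1.0.2). Copies were searched with BLAST 2.17.0. The trend removal and the event test were tested on simulated data. Whether replicate numbers pair the libraries is not given in the labels. Same-numbered libraries had correlations of 0.018, -0.040 and -0.089 over 5933 events, which with 3 libraries a group cannot settle it.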

Additional observations from a re-analysis of the deposited data

How the results depend on the processing

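The 18 genes higher after smoke became 28 at an adjusted p under 0.1 and 9 under 0.01. They became 2 with the GC and length trend removed, and 2 again with the longest or the shortest coding transcript in that trend, both chosen after seeing the data. Adjustment over all genes with a p, a minimum mean of 50 and centring kept the count within 1.5 times, and 0 genes were lower throughout. With the trend removed the median log2 fold change was 0.13 for complex I subunits, 0.18 for complex III, 0.50 for cytochrome c and 0.20 for complex IV. With the longest transcript it was 0.051 for complex II, 0.19 for complex III, 0.41 for cytochrome c, 0.22 for complex IV and 0.13 for ATP synthase, and with the shortest 0.51 for cytochrome c. A minimum mean of 50 left 1 assembly factor, at 0.39. Of the 85 genes, 12, 15 and 6 changed sign with the median, longest and shortest length, none of them among the 18. Among the named genes chosen by rule signs changed for Sdhb to -0.071, -0.088 and -0.0048 with the 3 lengths, for Cox7a2l to -0.0092, Atp5g2 to -0.077 and Atp5f1 to 0.12 with the longest transcript, and for Sdhc to -0.030 with the shortest.

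Leaving out each library in turn gave between 0 and 6 events past the threshold. The 6 came without smoke replicate 3, where 1131 of all events passed. In 5 of the 6 the smoke values left were all 0% or 100%, and the cause was not tested. The replicate block gave 0 events, and a retention difference of -3.75 percentage points, the same as without it. That difference ranged from -4.37 to -3.10 over the libraries left out. The retained introns of the rMATS list fell from 4 to 1 at a false discovery rate under 0.01 and to 0 with a difference of at least 10 points.

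The main limits are that expression rests on group means with errors from 24 libraries, that depth per library is unknown, and that 17 of the 18 calls end once the trend with length and GC content is removed.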

Other observations

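Enzymes of the citric acid cycle, which feed the chain with NADH and succinate, were examined as a neighbouring list. Of 13 tested genes 3 rose and 0 fell, or 23.1% beside the 4.15% of all tested genes, with a median log2 fold change of 0.17. Mdh2, the mitochondrial malate dehydrogenase, went from 397 to 615 normalized counts by the authors' deposited table, or 0.62 ± 0.12 on the log2 scale (DESeq2 adjusted p = 4.61e-05). Fh1, fumarase, went from 207 to 277 in the authors' deposited table, by 0.43 ± 0.14 (adjusted p = 0.0322). Ogdh, part of the oxoglutarate dehydrogenase complex, went from 831 to 1012 in the authors' deposited table, by 0.29 ± 0.087 (adjusted p = 0.0208). With the GC and length trend removed, Ogdh and Fh1 stayed past the threshold, with adjusted p-values of 0.0347 and 0.0384, and Mdh2 had 0.0550.

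The first intron of Ndufs8, between an untranslated first exon and the next, carried 9 of the 50 junction events of the group, the densest cluster among them. Of these, 8 are the linked donor events described above, so the cluster does not stand for as many distinct splicing events.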
